A study of Mus musculus with 4 samples.

Results

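Neurons with RNA of Gng13, the G protein gamma subunit that partners the olfactory G protein, made up 564 of the 4618 cells kept from 2 single-cell libraries of sorted E14.5 mouse cochlea (5950 cells were kept in the whole series). A kept cell was a barcode with at least 1000 detected genes and less than 10% of its UMIs (unique molecular identifiers, 1 per captured RNA molecule) in mitochondrial genes. Members were chosen by 3 measured counts: a kept cell had to hold at least 2 UMIs of Gng13, at least 1 UMI of Stmn2 (stathmin 2, a microtubule regulator of young neurons) and none of Neurod6 (a transcription factor of cortical neurons). The levels of these genes are therefore described and not tested. The comparison group was every other kept neuron with at least 3 Stmn2 UMIs, 370 cells in E14.5 replicate 1 and 547 in replicate 2.

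The series profiled the developing cochlear duct with the 10x Genomics 3 prime chemistry, version 3, in 2 libraries at E12.5 and 2 at E14.5. All 4 libraries were from Sox2-GFP/WT embryos, in which the promoter of Sox2 drives GFP and marks neural and otic progenitors and their recent progeny. Cochleae were cut away from the vestibular part, dissociated and sorted for GFP. The labels call the tissue cochlear duct and the cells auditory cells. The embryos pooled in each library are not stated. The p-values here rest on how the difference between groups varied over only 2 libraries, which may be technical. In the test the spread of each gene is also drawn towards that of other genes, so small p-values do not reflect 2 libraries alone.

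Olfactory sensory neurons detect odorants on cilia at the tip of a dendrite. A bound receptor activates the G protein alpha subunit Gnal with beta and gamma partners, adenylyl cyclase Adcy3 then makes cyclic AMP, the channel built from Cnga2, Cnga4 and Cngb1 opens, and the chloride channel Ano2 amplifies the current. Each mature neuron is known to transcribe mainly a single olfactory receptor gene, while Gap43 and Gng8 mark the immature stage and Omp, the olfactory marker protein, the mature stage.

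Promoters of 3 of the genes on which the results turn are shown. They belong to the rule gene and to 2 transduction genes with higher RNA in the members, which were picked because their windows hold the motif marked below. They are the 250 bases before the transcription start from the RefSeq promoter table on GRCm38.p6, 5′ to 3′ on the gene's strand, with capitals on CCCNNGGG, the palindromic core of the site bound by the Ebf (Olf-1) factors of olfactory neurons. The Gng13 window holds 2 overlapping matches. The other windows hold 1 each, and that they hold a match was fixed by the choice of genes.
Gng13, chr17:25716922-25717171, plus strand: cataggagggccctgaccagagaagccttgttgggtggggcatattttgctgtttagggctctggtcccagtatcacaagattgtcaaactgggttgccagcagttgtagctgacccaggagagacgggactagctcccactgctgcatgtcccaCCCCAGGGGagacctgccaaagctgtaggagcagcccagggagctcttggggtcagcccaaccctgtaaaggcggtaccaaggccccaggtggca
Cnga2, chrX:71991599-71991848, plus strand: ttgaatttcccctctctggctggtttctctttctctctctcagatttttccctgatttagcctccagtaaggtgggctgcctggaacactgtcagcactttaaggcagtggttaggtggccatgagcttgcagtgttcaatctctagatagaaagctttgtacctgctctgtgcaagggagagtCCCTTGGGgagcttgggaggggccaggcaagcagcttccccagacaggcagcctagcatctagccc
Rtp2, chr16:23930795-23931044, minus strand: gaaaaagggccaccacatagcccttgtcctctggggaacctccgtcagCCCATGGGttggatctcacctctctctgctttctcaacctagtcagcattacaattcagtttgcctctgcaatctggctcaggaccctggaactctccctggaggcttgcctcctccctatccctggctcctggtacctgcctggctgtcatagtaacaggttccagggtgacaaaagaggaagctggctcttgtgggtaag
Of the 15 genes listed for olfactory transduction, 11 had a window in the table. The core was in 5 of those (Cnga2, Cngb1, Ano2, Slc24a4 and Rtp2), 45.5%, against 13.4% of all 27025 genes with a window. Slc24a4 was too scarce to be tested for a difference in RNA. This share was the highest among the gene lists searched. Elsewhere it was 37.5% of 8 mature neuron genes, 28.6% of 14 olfactory transcription factors and 21.4% of 14 receptor choice and folding genes. Among 11 cortical genes it was 18.2%, and it was 0% of 15 cilia genes and of 10 ganglion genes. The core was also in 22.2% of the genes called higher in the members than in other neurons, in 21.8% of those called lower and in 17.0% of the tested genes called neither. The longer form of the site adds a T before the core and an A after it. It was in the window of none of the 11 genes and of 0.914% of all genes. The core was searched only after the longer form gave no match. The homeodomain core TAATTA was in none of the 11 and 5.65% of all. All 3 motifs are palindromes, so 1 strand covers both, and every match of the longer form is also a match of the core. A match is a stretch of letters, not a bound site.

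Replicate 1 held 228 members among 1569 kept cells (14.5%, exact Clopper-Pearson 95% interval 12.8 to 16.4%), and replicate 2 held 336 among 3049 (11.0%, 9.93 to 12.2%). The mean share was 12.8% ± 2.48 (SD, n = 2 libraries). By the same rule the E12.5 libraries held 0 of 648 and 6 of 684 kept cells, shares of up to 0.568% and of 0.877% (0.323 to 1.90%). Members were found almost wholly at E14.5, in both libraries. Intervals cover counting error only.

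Their Gng13 UMIs ranged from 2 to 457 per cell with a median of 39 in replicate 1, and from 2 to 368 with a median of 30 in replicate 2. Stmn2 medians were 62 and 54 UMIs. Just inside the limit, the 14 and 23 cells with exactly 2 Gng13 UMIs had Atf5 at 560 and 191 CPM (UMIs per 1000000 UMIs of the summed cells), and just outside it the 42 and 56 neurons with 1 Gng13 UMI had Atf5 at 403 and 134 CPM. Members with at least 10 Gng13 UMIs, 177 and 252 cells, had Atf5 at 2012 and 1886 CPM. Members with exactly 2 had Gng8 at 571 and 196 CPM and Omp at 0 in both libraries. Their olfactory receptor (Olfr) genes were at 20.9 and 1.27 CPM, against 11.9 and 5.48 CPM in other neurons. With at least 10, Gng8 was at 861 and 752 CPM, Omp at 76.3 and 42.8 CPM and Olfr genes at 218 and 134 CPM. Neurons with 1 Gng13 UMI had Gng8 at 329 and 150 CPM, Omp at 12.4 and 0.982 CPM and Olfr genes at 3.43 and 1.96 CPM. Those with at least 3 Stmn2 UMIs were placed among the other neurons. The limit therefore cut through a range of cells, with Gng8 and Atf5 RNA on both sides of it at lower levels than far inside. The sums below were carried mostly by cells far inside it. A further 8 and 29 cells met both count limits but had a Neurod6 UMI and were placed among the other neurons, where their Gng8 was 1246 and 753 CPM.

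Depth was similar between members and other neurons. The median member had 22813.5 and 24203 UMIs (replicates 1 and 2), and the median other neuron 20302 and 21075. No member barcode was shared between libraries. UMIs of the Y-linked genes Ddx3y, Eif2s3y, Kdm5d and Uty were found in 95.6% and 93.5% of members, and Xist in 0 and 2 cells. RNA of the sort reporter was scarce in them: an Egfp UMI was found in 4 of 228 (1.75%, 0.480 to 4.43%) and 12 of 336 members (3.57%, 1.86 to 6.16%), against 24.3% and 20.7% of other neurons and 43.8% and 51.3% of kept cells without a Stmn2 UMI. Egfp was lower in the members' sums by 2.95 on the log2 scale (SE 0.28, adjusted p = 4.1e-05, edgeR quasi-likelihood test). Sox2, the gene whose promoter drives the reporter, was at 66.1 and 107 CPM in members and at 63.2 and 70.1 CPM in other neurons, a difference of 0.33 log2 units (SE 0.13) that did not pass (adjusted p = 0.063).

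The label was checked against 14 olfactory neuron markers, of which Gng13 and Stmn2 belong to the rule. Of the other 12, all were tested in the summed counts, 11 were higher in members than in other neurons and 1, Gnal, did not pass. For comparison, 2956 of the 14148 genes tested were called higher (20.9%) and 3088 lower (21.8%), 42.7% in either direction, at the threshold of 0.05 for Benjamini-Hochberg adjusted p over all genes. The median log2 change was 1.94 over these markers and -0.02 over all genes tested. DESeq2, which called 1375 genes higher and 1474 lower, made only calls that edgeR had also made in the same direction.

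**Figure D1:**
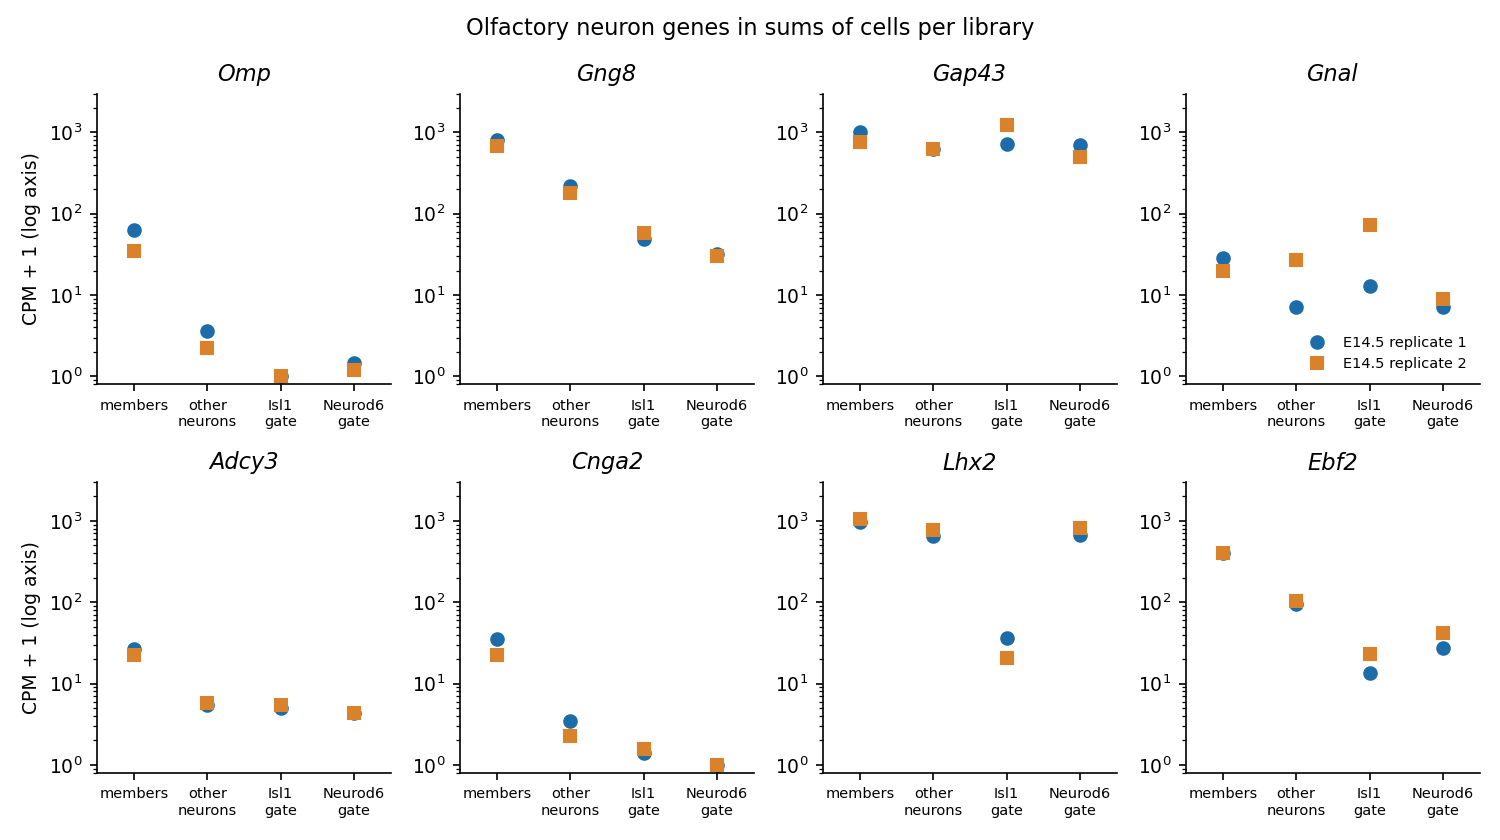
Level of 8 olfactory neuron genes (CPM + 1, log axis) in sums of cells from E14.5 replicate 1 (circles) and replicate 2 (squares), for members, other neurons, and gates on Isl1 and on Neurod6. Omp, Gng8, Adcy3, Cnga2 and Ebf2 were higher in members than in each other group in both libraries, while Gnal reached 72.0 CPM in the Isl1 gate of replicate 2.

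The transduction genes were higher in the members as a group. Of the 15 listed, 14 passed the filter on low counts, 13 were called higher, none lower, and the median log2 change was 2.66. Without the library as a term in the fit 12 were higher, and with DESeq2 12.

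Omp (chromosome 7, 98143359 to 98145502 on mm10) was at 62.3 and 33.7 CPM in members and at 2.63 and 1.25 CPM in other neurons. The log2 change was 4.62 (SE 0.17, adjusted p = 2.7e-07, edgeR quasi-likelihood test). An Omp UMI was seen in 83 members of each library, 36.4% and 24.7%, against 2.97% and 2.19% of other neurons and 0 of 844 and 6 of 1898 cells without Stmn2. The sums of members lay above those of other neurons in both libraries, but single cells of the groups overlapped. The mature marker was present in a minority of members.

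Cnga2, the main subunit of the olfactory cyclic nucleotide channel, was at 33.8 and 21.5 CPM in members and at 2.43 and 1.25 CPM in other neurons (log2 change 3.91, SE 0.21, adjusted p = 1.7e-06). Its partner subunits Cnga4 and Cngb1 were higher by 2.91 (SE 0.80) and 2.40 (SE 0.41), and Ano2 by 3.13 (SE 0.38). Cnga4 is scarce, and its call was lost without the library term (adjusted p = 0.050) and with a limit of 1 Gng13 UMI (adjusted p = 0.11). Stoml3, a stomatin relative of the sensory cilium, was at 24.2 and 21.3 CPM against 0.202 and 0.462 CPM, though only 33 and 44 members held a UMI of it. Adcy3 was at 25.4 and 21.1 CPM against 4.45 and 4.68 CPM (log2 change 2.31, SE 0.19, adjusted p = 1.9e-05). Every step from cyclase to chloride channel was thus higher in members, with the widest separation for Stoml3.

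Gnal, the alpha subunit that couples receptors to the cyclase, was the exception. It was at 27.6 and 18.9 CPM in members, and at 6.17 and 25.8 CPM in other neurons. Members were above other neurons in replicate 1 and below them in replicate 2, and the log2 change of 0.64 (SE 0.46) did not pass (adjusted p = 0.30, edgeR quasi-likelihood test). In cells thinned to 8000 UMIs each, the change was 1.02 (adjusted p = 0.039). In replicate 2, Gnal was at 72.0 CPM in neurons with Isl1, where the members had 18.9.

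Of the 12 alpha subunits of heterotrimeric G proteins tested, Gnal among them, none was called higher and 8 others were lower, with a list median of -0.64. Gnaq was at 31.3 and 32.5 CPM in members against 64.7 and 79.8 CPM, and Gnai2 at 193 and 182 against 268 and 265 CPM. Gnao1, the alpha subunit used by part of the vomeronasal neurons, was at 158 and 144 against 138 and 154 CPM and did not pass (adjusted p = 0.85). Of 4 beta subunits tested, Gnb1, which was also on the transduction list, was the only one higher, at 1234 and 1082 against 670 and 701 CPM (log2 change 0.74, SE 0.09, adjusted p = 0.00024), and Gnb2, Gnb3 and Gnb4 were lower. Of 8 gamma subunits other than Gng13, 2 were higher and 4 lower. Gng8, the gamma subunit of immature olfactory and vomeronasal neurons, was at 808 and 675 against 218 and 176 CPM (log2 change 1.89, SE 0.08), while Gng2 was at 51.1 and 53.1 against 249 and 266 CPM (log2 change -2.32, SE 0.09). Gng12, the other gamma subunit called higher, differed by 0.66 and did not pass with DESeq2 (adjusted p = 0.28). In subunit terms, Gnb1 and Gng8 were high where Gnb2 and Gng2 were low.

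Receptor transport and its stress-linked control were high as well. Rtp1 and Rtp2, which carry odorant receptors to the membrane, were at 83.4 and 71.5 against 9.62 and 4.95 CPM, and at 117 and 97.5 against 15 and 8.45 CPM. Atf5, the transcription factor of the unfolded protein response that follows receptor choice, was at 1774 and 1579 CPM in members against 252 and 204 CPM (log2 change 2.86, SE 0.09, adjusted p = 1.3e-07), and 97.4% and 98.8% of members held a UMI of it. Ddit3, another factor of that response, was at 81.7 and 62.8 against 31.1 and 30.0 CPM. Among 16 genes listed for receptor choice and folding 7 were higher and 2 lower. Cbx5, a heterochromatin protein, was lower at 75.1 and 84.9 against 131 and 138 CPM, and Kdm1a, Lbr, Hspa5 and Eif2ak3 did not pass.

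Of 20 listed transcription factors of the olfactory lineage, 14 were higher, 4 lower and 2 did not pass, with a median of 0.97. All 4 Ebf genes were higher. Ebf4 was at 41.0 and 42.9 against 6.78 and 7.79 CPM, Ebf2 at 398 and 396 against 94.4 and 102 CPM, and Ebf1 at 1776 and 1690 against 987 and 915 CPM. Lhx2, a LIM homeodomain factor needed for olfactory neurons and also used in cortex, was at 963 and 1064 against 655 and 766 CPM, a log2 change of only 0.50 (SE 0.08). Those that were lower included the nuclear factor I genes Nfia, Nfib and Nfix. Nfix was at 33.2 and 31.7 against 372 and 367 CPM. The Nfib call was lost against other neurons with neither Gng13 nor Neurod6 UMIs (adjusted p = 0.068).

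The cilia list moved in 1 direction. Of 16 genes of ciliary transport and the ciliary base tested, 14 were higher, none lower, with a median of 0.87. Ift88, of the transport complex that moves into the cilium, was at 41.7 and 39.1 against 13.5 and 14.2 CPM (log2 change 1.52, SE 0.13, adjusted p = 1.8e-05). Cby1, a protein of the ciliary base, was at 203 and 194 against 95.9 and 92.6 CPM, and Arl13b, a small GTPase of the ciliary membrane, at 49.2 and 46.2 against 24.1 and 21.0 CPM. The sum of the list was 992 and 942 CPM in members and 631 and 614 CPM in other neurons. With DESeq2, 7 of the 16 were called higher.

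The genes of neuronal differentiation did not move together. Of 14 immature neuron genes, 4 were higher and 8 lower, with a median of -0.47. Gap43 was at 1002 and 767 against 630 and 618 CPM (log2 change 0.47, SE 0.10, adjusted p = 0.0050), a call that was lost against other neurons with neither Gng13 nor Neurod6 UMIs (adjusted p = 0.085) and with a limit of 1 Gng13 UMI (adjusted p = 0.10). Calb2, which encodes calretinin, was at 569 and 458 against 150 and 164 CPM, whereas the RNA-binding protein gene Elavl4 was at 170 and 176 against 405 and 429 CPM. Of 13 synapse and transmitter genes 9 were lower, among them the vesicular glutamate transporter Slc17a6 at 21.8 and 19.1 against 55 and 55.8 CPM, and 1 was higher, the syntaxin Stx1a at 175 and 167 against 65.7 and 64.2 CPM. Members held no UMI of Gad1, Slc32a1, Th or Slc18a3 in either library.

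Progenitor genes were split too. Of 11, 6 were lower and 2 higher. Neurod1 was at 59.7 and 86.7 against 487 and 408 CPM (log2 change -2.64, SE 0.16, adjusted p = 3.7e-06), and the Notch ligand Dll1 at 1.27 and 2.03 against 15.7 and 20.7 CPM. Insm1, a zinc finger factor of neuron-producing divisions, was higher at 664 and 560 against 361 and 332 CPM. No S phase gene of 10 passed in either direction, and 7 of 10 genes of G2 and M phase were lower, with a median of -0.40. With DESeq2 only 2 of the latter were lower, and the Top2a call was lost (adjusted p = 0.067).

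Of 24 axon guidance and adhesion genes, 12 were higher and 6 lower. Kirrel2, an adhesion protein that sorts olfactory axons, was at 14.1 and 12.4 against 1.01 and 1.12 CPM (log2 change 3.57, SE 0.30, adjusted p = 2.0e-05). Efna3 was at 148 and 174 against 55.7 and 72.0 CPM, and Ncam1 at 1103 and 908 against 508 and 481 CPM. The receptor gene Epha5 went the other way, at 5.21 and 13.7 against 269 and 163 CPM. An ephrin ligand was thus high and an ephrin receptor low in the same cells.

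**Figure D2:**
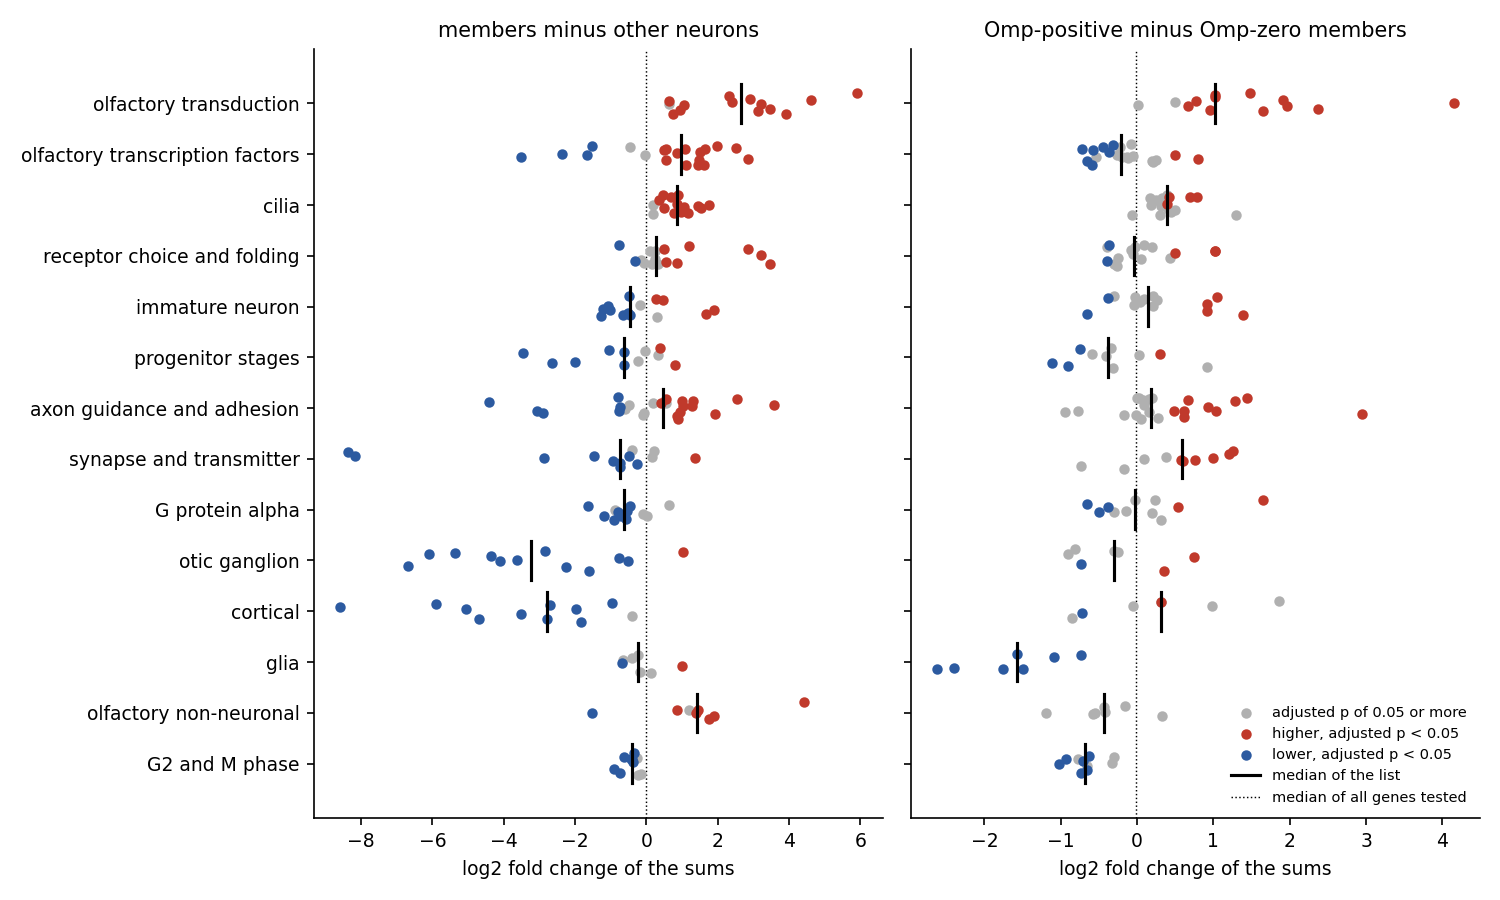
Log2 fold change of each tested gene of 14 lists, for members minus other neurons (left) and for members with an Omp UMI minus those without (right), coloured by the edgeR call, with list medians as bars and the median of all genes tested as a dotted line. On the left the transduction list sits at a median of 2.66 and the cortical list at -2.79, and on the right transduction at 1.03 and glia at -1.58. The cortical list on the left is in part set by the rule on Neurod6.

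Outside the lists, the largest increases named by a fixed rule of size included Sult1d1 (a sulfotransferase) at 135 and 74.9 against 6.48 and 8.18 CPM and Cbr2 (a carbonyl reductase) at 82.1 and 48.0 against 9.11 and 2.84 CPM. Mslnl was at 143 and 127 against 8.81 and 14.6 CPM, Fam92b at 183 and 153 against 23.4 and 17.4 CPM, and Arl14epl at 164 and 170 against 19.1 and 21.4 CPM. Tesc, which encodes the calcium-binding protein tescalcin, was at 588 and 454 against 105 and 50.5 CPM. Trim66, Bfsp2, Tex15, Efcab10 and Cntn4 completed the set with log2 changes from 2.78 to 3.03. These genes were spread over many members, as with Mslnl in 175 and 261 cells and Arl14epl in 191 and 286. Bpifa1, a secreted protein of airway epithelium, had the largest log2 change (8.44), but only 13 and 4 members held it and a single cell supplied 42.1% and 75.2% of its UMIs.

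Several genes were nearly undetected in members. Spp1, the secreted protein osteopontin, was at 0.282 and 0.193 CPM in members against 187 and 177 CPM, and Pvalb, the calcium buffer parvalbumin, at 0.986 and 0.483 against 266 and 220 CPM. The transcription factor Bhlhe22 was at 0 and 0.579 against 220 and 215 CPM, Neurod2 at 0 and 0.386 against 65.7 and 108 CPM, and Lhx9 at 0 and 0.290 against 48.3 and 74.0 CPM. Ttr was also among the largest decreases, but 1 cell held 99.4% of its UMIs in the other neurons of replicate 2. Of 12 tested genes of the ganglion list (otic and other sensory ganglia), 11 were lower and Prph, an intermediate filament gene, was higher. Isl1 was at 23.1 and 33.6 against 431 and 279 CPM. Prph was at 758 and 635 CPM in members, and its log2 change was 1.96 in replicate 1 and 0.10 in replicate 2. Its call was lost in 7 alternatives, with DESeq2 at an adjusted p of 0.49. Of 11 cortical genes 10 were lower and none higher. The rule kept cells with a Neurod6 UMI out of the members and left them among the other neurons. Lower levels of cortical genes, Neurod2 included, were therefore in part set by the choice of cells.

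Each of the other classes was also compared alone. The Isl1 gate took neurons with at least 3 Stmn2 UMIs, an Isl1 UMI and a Pou4f1 or Gata3 UMI, without Gng13 or Neurod6 (89 and 83 cells), and the Neurod6 gate took cells with at least 2 Neurod6 UMIs and at least 1 Stmn2 UMI without Gng13 (76 and 214 cells). The Isl1 gate was mixed between libraries: the sensory factor Tlx3 was at 0.401 CPM in replicate 1 and 149 CPM in replicate 2. Egfp in this gate was at 98.8 and 13.3 CPM. The median depth was 20183 and 40515 UMIs in the Isl1 gate and 23239 and 19868.5 UMIs in the Neurod6 gate. The comparisons with the gates were not repeated at equal depth. Against the Isl1 gate 2117 of 12961 genes were higher in members (16.3%) and 1957 lower (15.1%), 31.4% in either direction. Against the Neurod6 gate 2594 were higher (20%) and 2348 lower (18.1%), 38.1% in either direction.

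Members differed from both gates in Gng8, at 47.4 and 57.6 CPM in the Isl1 gate and 31.3 and 28.8 CPM in the Neurod6 gate, against 808 and 675 CPM. Omp was at 0 in both Isl1 sums and at 0.474 and 0.209 CPM in the Neurod6 gate. Gfy, the Golgi protein goofy of olfactory neurons, was at 301 and 253 CPM in members, 0.803 and 1.13 CPM in the Isl1 gate and 4.74 and 2.29 CPM in the Neurod6 gate. Dlx5 was at 110 and 98.8 CPM against 1.20 and 1.13 CPM in the Isl1 gate and 0 and 1.88 CPM in the Neurod6 gate. In each of these genes the members lay above both gates in both libraries. Both gates left out cells with a Gng13 UMI, so low levels there of genes that go with Gng13 were in part set by the choice of cells.

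Lhx2 was higher in members than in the Isl1 gate, and against the Neurod6 gate it did not pass. It was at 963 and 1064 CPM in members, at 35.3 and 19.8 CPM in the Isl1 gate (log2 change 5.22, SE 0.28, adjusted p = 0.00038, edgeR quasi-likelihood test), and at 673 and 813 CPM in the Neurod6 gate (0.31, SE 0.22, adjusted p = 0.31). Calb2 was at 0.803 and 0.565 CPM in the Isl1 gate. Olig2, a bHLH factor also known from oligodendrocyte and motor neuron progenitors, was at 1.61 and 3.11 CPM in the Isl1 gate against 210 and 280 CPM in members. Sox2 was at 65.0 and 44.3 CPM in the Isl1 gate and at 2.37 and 28.6 CPM in the Neurod6 gate. Whether a difference from the members was itself different between the gates was not tested. The 2 comparisons share the member sums, so their lists are not independent.

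Olfactory receptor genes were not used to choose the cells. The files name 1126 Olfr genes. At least 1 Olfr UMI was found in 150 of 228 members of replicate 1 (65.8%, 59.2 to 71.9%) and in 181 of 336 of replicate 2 (53.9%, 48.4 to 59.3%). In other neurons the share was 5.95% and 4.39%, and in cells without Stmn2, which serve as the background, 1.54% and 1.21%. After thinning every cell to 8000 UMIs, the share was 44.9% and 35.0% in members, 3.02% and 2.97% in other neurons and 0.380% and 0.666% in cells without Stmn2. Members were far above both references at equal depth.

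**Figure D3:**
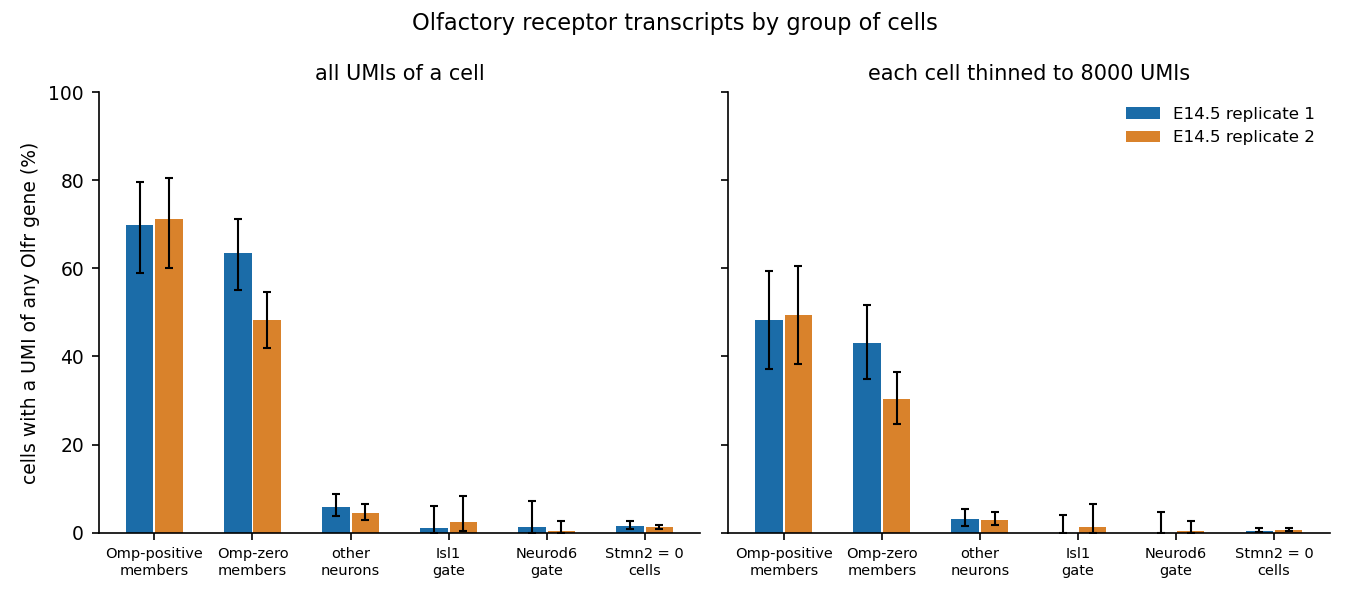
Share of cells with a UMI of any Olfr gene, with all UMIs (left) and after thinning to 8000 UMIs per cell (right), as bars for each E14.5 library with exact 95% intervals. Members with and without an Omp UMI stand between 48.2 and 71.1% on the left, and the other neurons, both gates and the cells without Stmn2 at 5.95% or less.

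Receptor RNA was abundant in single cells and spread over many genes. Members held 1379 and 1096 Olfr UMIs in all, from 210 and 252 of the 1126 Olfr genes, 373 genes together. The libraries shared 89 of them, 42.4% of the genes of replicate 1 and 35.3% of those of replicate 2. Whether this sharing exceeds that of 210 and 252 genes drawn from 1126 was not tested. A cell with a receptor UMI had 1 Olfr gene in 89 and 87 cells, 2 in 31 and 46 cells, and 3 or more in 30 and 48. Many members held a single Olfr UMI and could show only 1 gene, so these counts alone do not speak to receptor choice. In the 69 and 66 members with at least 5 Olfr UMIs, the first gene held a median of 100% and 88.5% of them, and over 90% in 40 and 31 cells. Only 15 and 16 members had at least 2 UMIs of each of 2 or more Olfr genes. The first gene thus held over 90% in more of the receptor-rich members of replicate 1 than not, and in fewer than not in replicate 2.

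**Figure D4:**
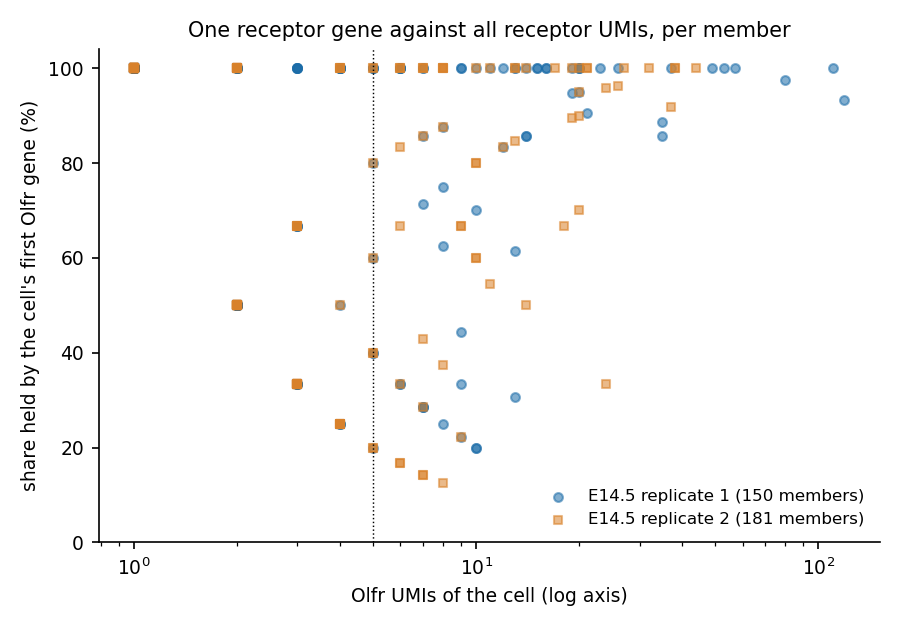
Share of a member's Olfr UMIs held by its first Olfr gene (vertical) against its Olfr UMIs (horizontal, log axis), 1 point per member with a receptor UMI, 150 in replicate 1 and 181 in replicate 2, with a dotted line at 5 UMIs. Members right of the line spread from 12.5% to 100%, with a median of 100% in replicate 1 and 88.5% in replicate 2.

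The receptor with most UMIs was Olfr299 (chromosome 7, 86459921 to 86469557 on mm10, plus strand), with 114 UMIs of which 110 were in 1 cell. Olfr360 (chromosome 2, 37065746 to 37069651, plus strand) had 111 UMIs, all in 1 cell, and Olfr126 on chromosome 17 had 78, also in 1 cell. Olfr368 had 67 UMIs in 7 cells, Olfr411 66 in 6 cells and Olfr330 62 in 7 cells. The 3 receptors with most UMIs each rested on 1 cell.

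Detected receptor genes lay on the chromosomes that carry most Olfr genes. Chromosome 2 carried 23.4% of the Olfr genes in the files and 25.2% of those detected in members, chromosome 7 20.5% and 16.1%, and chromosome 9 11.6% and 13.7%. When a member held several Olfr genes, 15% and 14.5% of the pairs were on 1 chromosome and 1.87% and 1.75% lay within 100000 bases of each other. These are pairs of 321 and 399 across cells, and genes of a cluster can share reads, since their sequences are alike.

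Other chemoreceptor families were rare. Vmn1r UMIs were in 7.46% and 10.7% of members against 2.97% and 2.56% of other neurons. By level the libraries went opposite ways, with Vmn1r at 4.79 and 31.0 CPM in members against 11.0 and 0.924 CPM in other neurons, and Vmn2r at 3.52 and 1.93 CPM against 6.58 and 0.264 CPM. At least 5 Vmn1r UMIs were held by 1 and 4 members and by 4 and 0 other neurons. Vmn1r51 gave 203 UMIs in 3 members of replicate 2, 194 of them in 1 cell. Trace amine receptors reached at least 5 UMIs in 4 members of replicate 1, from Taar4, Taar6 and Taar7d, and in none of replicate 2. Trpc2, the vomeronasal channel, had 0 UMIs in every group, members and others, so it separates nothing here. Gnrh1, of the neurons that migrate from the nasal region, was seen in 2 and 1 members.

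Members without an Olfr UMI (78 and 155) and members with at least 3 UMIs of their first receptor (70 and 58) had median depths of 21786.5 and 22413 UMIs, and 24125.5 and 30550.5 UMIs. Without a receptor, Rtp1 was at 53.1 and 37.7 CPM, and with one at 133 and 126 CPM. Ddit3 was at 48.6 and 30.4 CPM without and 144 and 116 CPM with. Atf5 was at 1180 and 1028 CPM without and 2560 and 2333 CPM with. Neurod1 went the other way, at 85.0 and 108 CPM without and 26.6 and 28.6 CPM with a receptor, and Lbr, the nuclear envelope protein that is lost as olfactory neurons mature, at 32.8 and 34.2 against 18.3 and 21.1 CPM. In all 5 genes the groups kept their order in both libraries. No test was made of this split, whose groups differ in depth as given above.

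Dorsal olfactory neurons are known for Nqo1 and ventral ones for Ncam2 (OCAM). Nqo1 UMIs were in 34 and 37 members and Ncam2 UMIs in 112 and 167. Of the members with Nqo1, 11 of 34 (32.4%, 17.4 to 50.5%) and 11 of 37 (29.7%, 15.9 to 47.0%) also held Ncam2. Of those without Nqo1, 52.1% (44.8 to 59.3%) and 52.2% (46.3 to 58.0%) did. The share was lower with Nqo1 in both libraries, although those cells were the deeper ones, with median depths of 27808 and 27652 UMIs against 22507 and 24164. Both genes were higher in members than in other neurons, by 1.93 (SE 0.28) for Nqo1 and 1.29 (SE 0.13) for Ncam2.

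The 83 members of each library with an Omp UMI were compared with the 145 and 253 without. This split is a range of 1 gene and not a type, and detection depends on depth: the median member with Omp had 25771 and 31158 UMIs and without it 21816 and 22890. Omp itself was left out of the test. Of 12061 genes, 1177 were higher with Omp (9.76%) and 835 lower (6.92%), 16.7% in either direction. DESeq2 called 296 higher and 179 lower, all of them also called by edgeR in the same direction.

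Of 13 transduction genes tested, 11 were higher with Omp and none lower, with a median of 1.03 against -0.01 over all genes (6 were higher with DESeq2). Stoml3 was at 52.8 and 64.7 CPM with Omp and 2.95 and 3.41 CPM without (log2 change 4.15, SE 0.20, adjusted p = 7.7e-07, edgeR quasi-likelihood test). Cnga2 was at 53.5 and 52.5 CPM against 19.2 and 8.73 CPM, and Gnal at 48.9 and 34.0 against 11.8 and 12.7 CPM (log2 change 1.66, adjusted p = 0.00017). Rtp2 was at 154 and 171 against 89.0 and 67.3 CPM. The Gnal levels that overlapped between members and other neurons were separate within the members.

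Some synaptic and axonal genes were also higher with Omp. Of 10 synapse and transmitter genes 6 were higher, none lower and 4 did not pass. Syt1, the calcium sensor of vesicle release, was at 83.2 and 101 against 39.6 and 35.6 CPM, and Snap25 at 144 and 133 against 69.8 and 48.0 CPM. Of 22 axon guidance genes 9 were higher, none lower and 13 did not pass, with a median of 0.18, led by Nqo1 at 43.2 and 24.4 against 5.65 and 2.87 CPM (log2 change 2.95, SE 0.23, adjusted p = 1.8e-05), which stood on that list as the mark of the dorsal zone. Gap43, a marker of the immature stage, was itself higher with Omp, at 1340 and 1234 against 750 and 574 CPM. Gng3 was at 429 and 415 against 174 and 153 CPM and Gng2 at 34.0 and 30.4 against 63.9 and 62.5 CPM, while Gng8 did not pass (adjusted p = 0.59).

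Of 20 olfactory transcription factors 7 were lower with Omp, 2 higher and 11 did not pass. Fezf1 was at 156 and 163 against 227 and 233 CPM, and Lhx2 at 829 and 935 against 1062 and 1117 CPM, whereas Atf5 was higher at 2066 and 2157 against 1557 and 1340 CPM. The proneural factor Neurog1 was at 24.8 and 26.4 against 52.3 and 54.7 CPM. Of 10 genes each, 4 of S phase and 6 of G2 and M phase were lower and none higher, so 6 and 4 did not pass (with DESeq2 0 and 1 were lower), with Top2a at 69.3 and 55.8 against 103 and 86.5 CPM, a call lost with DESeq2 (adjusted p = 0.086).

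**Figure D5:**
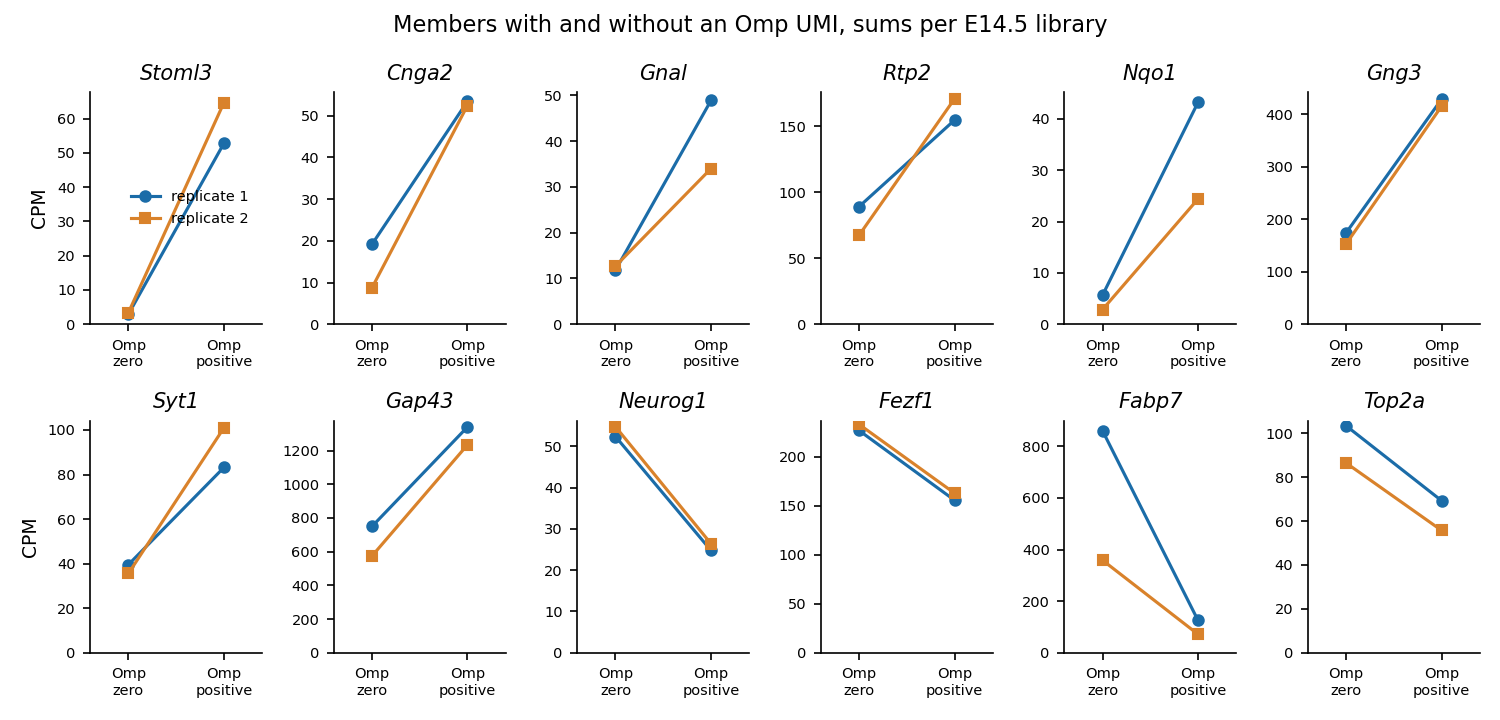
Level (CPM, linear axes from 0) of 12 genes in members without and with an Omp UMI, joined within each E14.5 library. Stoml3, Cnga2, Gnal, Rtp2, Nqo1, Gng3, Syt1 and Gap43 were higher with Omp and Neurog1, Fezf1, Fabp7 and Top2a lower, in both libraries.

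The 5 largest increases with Omp were Fxyd2, a regulator of the sodium pump, at 151 and 42.2 against 15.7 and 5.59 CPM, Faim2 at 94.1 and 55.4 against 13.5 and 8.60 CPM, Nap1l5, Pcsk1n and Pomc. For Pomc, 1 member of replicate 2 held 80.4% of the library's UMIs, and the call was lost with DESeq2 (adjusted p = 0.73). The largest decreases were Krt15, Fabp7, Rgcc, S100a6 and Ednrb. Fabp7, a fatty acid binding protein of glia, was at 125 and 71.6 CPM with Omp and 860 and 359 CPM without.

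Markers of other cell types moved with these results. All 7 glial genes were lower with Omp (3 with DESeq2), and the sum of the list was 216 and 163 CPM with Omp and 1172 and 517 CPM without, in which all 7 were detected. Against other neurons the same list stood at 764 and 413 CPM in members and 504 and 720 CPM in others. The 9 genes of olfactory non-neuronal cells summed to 415 and 531 CPM in members and 276 and 202 CPM in other neurons, and 6 of the 8 tested were higher. Cyp2g1, an enzyme of olfactory supporting cells, was found in 9.65% and 16.1% of members, at 18.9 and 46.4 CPM against 10.2 and 8.12 CPM. Of 6 epithelial genes all 6 were higher, with Epcam at 674 and 687 against 334 and 302 CPM and in 96.1% and 97.3% of members. Oc90, the otoconial protein of the inner ear, was at 2.39 and 56.0 CPM, with 65.5% of its UMIs in 1 member of replicate 2. The part of such RNA in the results above was not tested. In members without a Cyp2g1 or Oc90 UMI, a limit that leaves the epithelial and glial RNA above in place, 13 of 14 transduction genes were called higher.

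Blood and immune markers were near 0 in members. The 4 macrophage genes summed to 1.83 and 2.61 CPM against 20.5 and 38.4 CPM in other neurons. The erythroid genes summed to 11.3 and 14.1 CPM, against 1957 and 11.8 CPM in other neurons, of which 1 cell of replicate 1 supplied 99.7% of the Hba-a1 UMIs. Without that cell the members had 2970 genes higher and 3109 lower. Among stress genes of dissociation, 5 of 13 were higher and 1 lower, with Atf3 at 54.9 and 71.8 against 8.60 and 21.2 CPM.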

How the data were processed

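The authors deposited, for each library, raw UMI counts per gene and barcode, made with Cell Ranger 3.0.0 on mm10 per the submitters' processing notes; how it called cells is not stated in the labels. Only E14.5 libraries entered tests. Each group's counts were added up within a library, and the sums compared in R 4.3.3 by edgeR 4.0.16: TMM factors, filterByExpr, a quasi-likelihood test with the library as a term (both sums come from the same library) and Benjamini-Hochberg adjustment over all genes, threshold 0.05. SE was worked back from the test, as the size of the log2 change divided by the square root of the F statistic. Same-library sums deviated together with r = 0.17 (members and other neurons), -0.04 (Isl1 gate), 0.10 (Neurod6 gate) and 0.17 (Omp split), across genes, which are not independent. On simulated counts for members against other neurons (14102 genes), the fit found 89.9% of 99 2-fold and 100% of 99 4-fold changes. For the Omp split (12034 genes) it found 74.2% of 97 and 98.0% of 98. It also called 13 and 10 unchanged genes. The simulated counts had a fixed spread that was not estimated from these sums, and no library effect. These rates therefore need not hold for the real sums. Alternatives were no library term, DESeq2 1.42.0, RLE factors, no filter, other gates, thinning to 8000 UMIs and removal of high doublet scores. Scrublet in scanpy 1.11.5 called only 4 and 2 cells, so it did not work as a caller, and doublets may remain. Sums held 2109479 to 15156507 UMIs. Positions are from GENCODE vM21, which held 98.7% of the identifiers. Members and gene lists were chosen with earlier results of these data known. Named genes were the 15 largest increases and 10 largest decreases per comparison (5 and 5 for Omp) at a mean log2 CPM of 5 or more and 1 direction in both libraries, up to 6 genes with the smallest p per list, and a set of always named genes; numbered gene models and genes for ribosomal, mitochondrial or hemoglobin proteins, Xist and Y genes were left out. Other list members, the receptor split and the core of the Ebf motif, which was searched after the longer form gave no match, were taken up after values were seen. A listed gene is counted with its list but not reported here.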

Additional observations from a re-analysis of the deposited data

Results flagged for a closer look

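The matrices carry features for TdTomato, Eyfp and Creert2, although the labels name only the Sox2-GFP allele, and these features enter none of the comparisons above. UMIs of each were found in members above the 3 counts that a count of 0 allows. TdTomato was in 13.2% of members of replicate 1 and 17.6% of replicate 2, against 7.30% and 10.1% of other neurons. Eyfp was in 10.5% and 13.7% of members, against 4.59% and 7.13%. Creert2 was in 13.2% and 23.2% of members, against 8.38% and 12.2% of other neurons and 17.4% and 15.8% of cells without Stmn2. Among all kept cells at E12.5, TdTomato was in 1.08% and 1.90%, Eyfp in 0.926% and 0.585% and Creert2 in 0.154% and 0.439%. Counts per cell were low: TdTomato gave 31 UMIs in 30 members of replicate 1 and 65 in 59 of replicate 2.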

How the results depend on the processing

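With DESeq2 the calls were 1375 higher and 1474 lower for members against other neurons, 1390 higher against the Isl1 gate, and 296 higher and 179 lower for the Omp split. Without the replicate block the Omp split had 528 genes lower, and no other count of calls moved by more than 1.5 times. The share of members with an Olfr UMI fell from a mean of 59.8% to 40.0% after thinning. Leaving out 1 library gave 11.0 to 14.5% for the share of members and 53.9 to 65.8% for that with an Olfr UMI; fold changes alone can be had then, since no residual degrees of freedom remain. Signs reversed for Gnao1 with 1 Gng13 UMI (-0.14), for Cyp2g1 (-9.45) and Sox2 (-0.17) without members holding Cyp2g1 or Oc90, for Gnal (0.57) and Gap43 (0.29) against an Isl1 gate without Tlx3 and Th, for Prph against the Isl1 gate with DESeq2 (-0.19) and without the replicate block (-0.50), and for Oc90 in the Omp split with DESeq2 (-0.43) and without E14.5 replicate 2, with a range of -2.52 to 2.23 when either replicate is left out. Apart from the Cyp2g1 cells, which that setting removes, the cause was not tested. The limits without Cyp2g1 or Oc90, without hemoglobin-rich cells and the narrow gates were chosen after seeing the data. Of 1721 refitted values for 199 gene results, 1643 kept direction and side of the threshold, 61 were weaker, 9 stronger and 8 reversed. Of the 398 values with 1 library left out, which have no test, 75 lay further from the fitted change than the SD of the 2 single-library values. By arithmetic each single-library value lies within that SD of the mean of the 2. The count of 75 therefore does not measure how stable these values were between libraries. For 10 gene results 1 of these values had the opposite sign: besides Oc90 they were Gnal (-0.46 to 2.11), Gnao1 (-0.12 to 0.18) and Kirrel3 (-1.25 to 0.19) against other neurons, Gnal (-1.96 to 1.20), Prph (-1.58 to 3.42) and Gap43 (-0.75 to 0.50) against the Isl1 gate, and Cyp2g1 (-0.79 to 2.48), Ebf2 (-0.27 to 0.0031) and Gng8 (-0.12 to 0.30) in the Omp split, and of the 10 only Oc90 passed the test with both libraries. With 2 libraries, small changes and genes of a few UMIs are not resolved.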
